A study of Mus musculus with 6 samples.

Results

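The Hippo effectors and YAP target genes described here are 10 genes chosen by name, the co-activators *Yap1* and *Wwtr1*, the DNA-binding factors *Tead1* and *Tead2*, the kinases *Lats1* and *Lats2*, and the targets *Ccn1*, *Ccn2*, *Ankrd1* and *Amotl2*. Of the 10 names, 9 matched a gene symbol among the 18152 genes measured, and the RNA of *Ankrd1*, a cardiac ankyrin repeat protein, was not analysed here. RNA was sequenced from the inner enamel epithelium (IEE) of the mandibular first molar of mouse embryos at E18.5, with 3 libraries of the genotype *Kdf1 fl/fl* and 3 of the genotype *K14-Cre;Kdf1 fl/fl*. All 6 libraries carry the floxed *Kdf1* allele, and the second group adds Cre recombinase driven by the keratin 14 promoter, which is active in epithelial cells. The groups are called control (*Kdf1 fl/fl*) and cKO (*K14-Cre;Kdf1 fl/fl*) here, after the sample labels, which also describe the controls as WT. The area was cut from frozen head sections by laser capture microdissection, and the labels call the libraries biological replicates without tying them to litters or sections. The adjusted p values therefore test differences between the groups against the spread between these libraries. Whether the libraries are independent of litter is not known.

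In the Hippo pathway, the kinases MST1 and MST2 activate LATS1 and LATS2, which phosphorylate the co-activators YAP and TAZ, encoded by *Yap1* and *Wwtr1*. Phosphorylated YAP and TAZ are held in the cytoplasm or degraded, whereas the unphosphorylated proteins enter the nucleus, bind TEAD factors and switch on target genes. The control is thus largely at the level of the protein, so that the RNA of *Yap1* or *Wwtr1* does not measure the activity of the pathway. *Ccn1*, *Ccn2*, *Ankrd1*, *Amotl2* and *Lats2* are widely used as target genes, and LATS2 and AMOTL2 in turn restrain YAP. In the tooth germ, YAP in the dental epithelium is known to influence the enamel knot and the shape of the crown.

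TEAD factors recognise the letters GGAATG, read CATTCC on the opposite strand, and these letters were searched in the 250 bases before the annotated start of each gene in RefSeq (mouse build GRCm38.p6). Of 32851 such regions in the genome, 12.6% held the letters on at least one strand, and counted by gene the share was 14.4% of 27025 genes. Among the members, 8 had a region in the RefSeq table, 5 of them held the letters (*Yap1*, *Wwtr1*, *Ccn1*, *Ankrd1* and *Amotl2*) and 3 did not (*Lats1*, *Lats2* and *Tead2*). *Tead1* and *Ccn2* had no entry. The regions of the co-activator pair and of *Ccn1* and *Amotl2*, target genes with contrasting RNA levels, are printed 5′ to 3′ on the strand of the gene, with the motif in capitals. The *Yap1* region is chr9:8004597-8004846 on the minus strand, and its motif begins 141 bases before the start. The *Wwtr1* region is chr3:57575877-57576126 on the minus strand, 1 of a pair of annotated starts, and its motif begins 170 bases before the start. The *Ccn1* region is chr3:145649986-145650235 on the minus strand, and its motif begins 103 bases before the start on the opposite strand. The *Amotl2* region is chr9:102717554-102717803 on the plus strand, and its motif begins 65 bases before the start on the opposite strand.
Yap1: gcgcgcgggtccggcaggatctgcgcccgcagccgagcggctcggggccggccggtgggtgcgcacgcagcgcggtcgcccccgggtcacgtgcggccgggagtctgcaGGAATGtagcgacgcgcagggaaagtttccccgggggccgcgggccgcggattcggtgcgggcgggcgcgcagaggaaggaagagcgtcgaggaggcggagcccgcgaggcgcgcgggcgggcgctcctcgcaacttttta
Wwtr1: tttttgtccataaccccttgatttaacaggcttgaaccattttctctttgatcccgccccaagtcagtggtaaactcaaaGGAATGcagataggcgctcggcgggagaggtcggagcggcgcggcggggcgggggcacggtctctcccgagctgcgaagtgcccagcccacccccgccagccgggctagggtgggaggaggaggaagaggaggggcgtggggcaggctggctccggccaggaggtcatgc
Ccn1: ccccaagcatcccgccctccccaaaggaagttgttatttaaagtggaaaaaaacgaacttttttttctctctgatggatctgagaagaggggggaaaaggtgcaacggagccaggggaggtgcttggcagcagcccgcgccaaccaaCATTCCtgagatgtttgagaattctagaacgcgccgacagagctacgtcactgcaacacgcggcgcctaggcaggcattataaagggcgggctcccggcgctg
Amotl2: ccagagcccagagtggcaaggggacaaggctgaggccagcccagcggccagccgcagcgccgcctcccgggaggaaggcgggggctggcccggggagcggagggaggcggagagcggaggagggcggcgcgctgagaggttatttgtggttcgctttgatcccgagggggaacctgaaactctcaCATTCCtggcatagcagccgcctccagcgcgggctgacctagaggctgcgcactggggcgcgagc
These 4 regions were taken from the 5 that held the letters. They therefore cannot show whether the motif goes with a difference between the genotypes. The match of letters is a description of the sequence and gives no information on binding.

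The libraries held between 14713918 and 16675133 assigned reads, so that a count of 0 allows up to 3 reads or 0.182 to 0.198 CPM (read counts scaled to an equal library total). *Kdf1* had 836, 731 and 835 reads in the libraries labelled control and 0, 1 and 0 reads in those labelled cKO. CPM values, scaled by the TMM method, serve for comparisons between libraries. TPM values, which also correct for the length of the transcript, serve for comparisons between genes. A gene passed the criterion where its log2 fold change was at least 1 in size and its Benjamini-Hochberg (BH) adjusted p over the 14131 genes tested was at most 0.05. The edgeR fit without pairing was the primary test. The fit with the replicate number as a block is given beside it, although the labels do not pair the libraries. It was added because deviations of same-numbered libraries correlated at 0.135, 0.324 and 0.499 across genes in these same data. Correlations of differently numbered libraries are not given for comparison, so the blocked calls hold only if the numbers are pairs.

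In the cKO IEE, RNA of *Ccn1*, *Ccn2* and *Lats2* was 3.08-fold, 3.05-fold and 2.21-fold the level in control IEE by the edgeR estimate, and that of *Tead1*, *Tead2* and *Wwtr1* was 1.67-fold, 1.59-fold and 1.50-fold. *Yap1*, *Lats1* and *Amotl2* lay at 1.05-fold, 1.07-fold and 0.994-fold. In the edgeR fit without pairing, 0 of the 9 members passed the criterion, where 0.432% of all genes did. At an unadjusted p of 0.05 in this fit, 6 members were higher and 0 lower, against 13.0% of all genes being higher. With the replicate block, 3 members passed the criterion upwards (*Ccn1*, *Ccn2* and *Lats2*), against 4.16% of all genes. DESeq2 without pairing called the same 3 members higher, against 5.05% of all genes. By adjusted p alone, without the fold threshold, 6 members were higher with the block, against 5.43% of all genes, and 6 were higher in DESeq2, against 7.39%. For 6 members every cKO library lay above every control library, an order that 14.5% of all genes had, and for the other 3 the groups overlapped. The median log2 fold change was 0.66 over the 9 members and 0.00 over all genes tested. The members were chosen with earlier results of these data known. The shares of all genes therefore give a background for description and no unbiased test of the list.

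**Figure D1:**
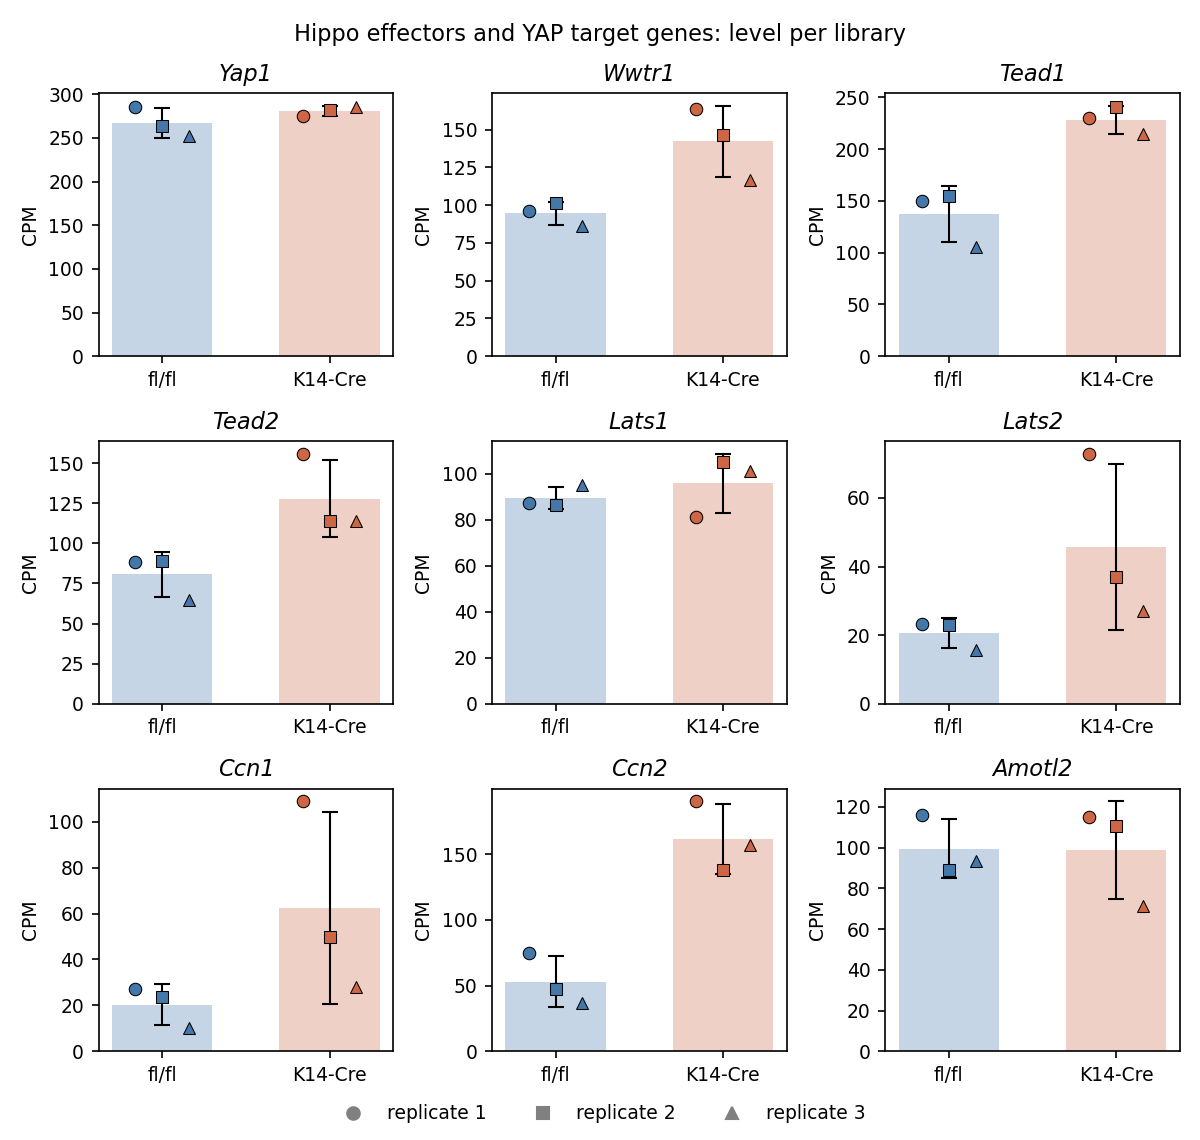
Level of each of the 9 measured members in CPM (vertical axis, from 0) in the 3 control libraries (axis label fl/fl, blue) and the 3 cKO libraries (axis label K14-Cre, orange), with points for single libraries, symbols for the replicate number, bars for the mean and error bars for the SD. The groups overlap for *Yap1*, *Lats1* and *Amotl2* and are separate for the other 6 genes.

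The estimates for the co-activators differed from each other. *Yap1* had 285, 263 and 253 CPM in the control libraries and 275, 282 and 286 CPM in the cKO libraries. The groups overlapped, and the means of 267 ± 16.8 and 281 ± 5.59 CPM (SD, n = 3) differed by less than the spread of the controls. Its log2 fold change was 0.07 (SE 0.11, BH-adjusted p = 0.708 in edgeR), and the 95% interval of the fold ran from 0.884 to 1.25. *Wwtr1*, which encodes TAZ, had 95.8, 102 and 86.5 CPM in the control libraries and 163, 146 and 117 CPM in the cKO libraries. Every cKO library was above every control library, with means of 94.6 ± 7.64 and 142 ± 23.4 CPM. Its log2 fold change was 0.59 (SE 0.15, BH-adjusted p = 0.0850 in edgeR), and the 95% interval of the fold was 1.18 to 1.91. With the block the adjusted p was 0.0334 (edgeR) and the log2 fold change 0.58. Within the 3 pairs the cKO library was higher by 0.77, 0.52 and 0.43 on the log2 scale, a direction that the separate groups already fix. With any 1 of the pairs left out, the blocked adjusted p was between 0.0641 and 0.115.

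Of the TPM that the co-activator pair shared, *Wwtr1* accounted for 22.5%, 24.9% and 22.8% in the control libraries and 33.8%, 30.8% and 26.1% in the cKO libraries. The share was above the controls in every cKO library, with means of 23.4 ± 1.34% and 30.2 ± 3.85%. An exact two-sided permutation test gave p = 0.1 for this share, the smallest p that 3 against 3 libraries allow, and 0.175 after BH adjustment over the 7 shares compared. *Yap1* remained the more abundant of the pair in every library.

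Both TEAD members, which carry YAP and TAZ to DNA, were higher in the cKO group. *Tead1* had 150.2, 155 and 106 CPM in the control libraries and 230.0, 241 and 214 CPM in the cKO libraries. The groups did not overlap, and the means were 137 ± 27.1 and 228 ± 13.4 CPM. The log2 fold change of *Tead1* was 0.74 (SE 0.16, BH-adjusted p = 0.0726 in edgeR, 0.0215 with the block). *Tead2* had 88.7, 88.7 and 64.6 CPM in the control libraries and 156, 114 and 114 CPM in the cKO libraries. Its groups did not overlap either, and the log2 fold change was 0.66 (SE 0.18, BH-adjusted p = 0.0992 in edgeR, 0.0318 with the block). Neither reached the fold threshold in the edgeR fits. Without pair 3, where the control library was the lowest for both genes, the blocked adjusted p of *Tead1* was 0.113 and that of *Tead2* was 0.164. Without pair 1 the blocked adjusted p of *Tead2* was 0.0519.

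The family has 4 genes, and the summed TPM of *Tead1* to *Tead4* was 196, 190 and 136 in the control libraries and 298, 229 and 213 in the cKO libraries. The sum was higher in every cKO library. *Tead3* had similar levels in both groups, with 96.4 ± 13.6 and 99.0 ± 7.04 CPM (log2 fold change 0.04, BH-adjusted p = 0.886 in edgeR). *Tead4* was the least abundant, at 4.97 ± 1.76 and 2.94 ± 1.66 CPM (log2 fold change −0.75, BH-adjusted p = 0.411 in edgeR). By TPM, the share of *Tead2* in the family was 42.8 ± 2.59% and 49.9 ± 3.44% and that of *Tead3* was 41.3 ± 3.45% and 31.9 ± 1.92%, in both cases with no overlap between groups. *Tead4* made up 1.76 ± 0.510% and 0.750 ± 0.393%, also without overlap, and *Tead1* 14.1 ± 1.28% and 17.5 ± 1.96% with overlap. The exact permutation p was 0.1 for *Tead2*, *Tead3* and *Tead4* and 0.2 for *Tead1*, or 0.175 and 0.233 after adjustment. This test does not use the pairs. Within them the *Tead1* and *Tead2* shares were higher in the cKO library in 3 of 3, and the *Tead3* and *Tead4* shares in 0 of 3. For all but *Tead1* this direction already follows from the separate groups.

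**Figure D2:**
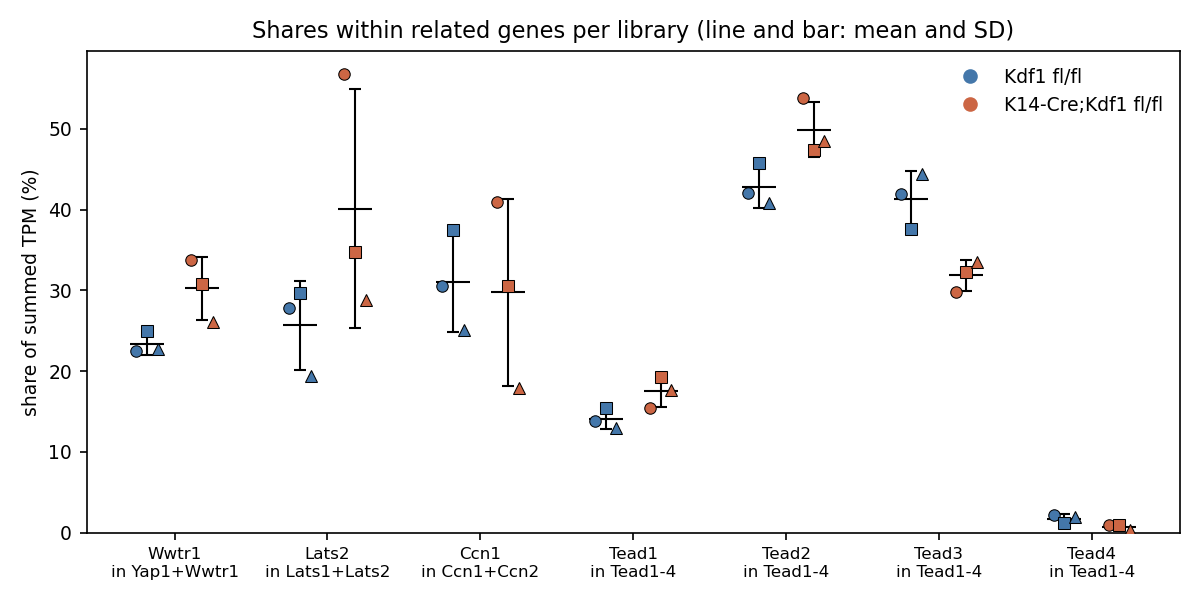
Share of each gene in the summed TPM of its relatives (vertical axis, %) in the 3 libraries of each genotype, with circles, squares and triangles for replicates 1, 2 and 3 and a line and bar for the mean and SD. The *Wwtr1* and *Tead2* shares are higher, and the *Tead3* and *Tead4* shares lower, in every cKO library.

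The estimates also differed within the kinase pair that acts upstream of YAP. *Lats1* had 87.6, 86.3 and 95.1 CPM in the control libraries and 81.4, 105 and 102 CPM in the cKO libraries. The groups overlapped, the log2 fold change was 0.10 (SE 0.13, BH-adjusted p = 0.671 in edgeR) and the 95% interval of the fold was 0.868 to 1.32. *Lats2*, both a kinase of YAP and a YAP target gene, had 23.4, 23.0 and 15.7 CPM in the control libraries and 72.9, 36.9 and 27.1 CPM in the cKO libraries. Every cKO library was higher, but replicate 1 stood well above the other two. For *Lats2* the log2 fold change was 1.14 (SE 0.37, BH-adjusted p = 0.131 in edgeR), with a 95% interval of the fold of 1.20 to 4.04. With the block *Lats2* passed the criterion (log2 fold change 1.04, adjusted p = 0.0344), as it did in DESeq2 (adjusted p = 0.0257). This call was lost without the first cKO library in DESeq2 (log2 fold change 0.63, adjusted p = 0.165). In the blocked fit it was lost without pair 1, where the log2 fold change was 0.74, and without pair 3, where the adjusted p was 0.147. The share of *Lats2* in the TPM of both kinases was 25.7 ± 5.51% and 40.1 ± 14.8%, with overlap between groups (exact permutation p = 0.2, adjusted 0.233) and a higher share in the cKO library of all 3 pairs.

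The largest differences among the members were in *Ccn1* and *Ccn2*, which encode the secreted matricellular proteins CYR61 and CTGF. *Ccn2* had 74.7, 47.5 and 36.9 CPM in the control libraries and 190.4, 138 and 157 CPM in the cKO libraries. The lowest cKO library was well above the highest control, with means of 53.0 ± 19.5 and 162 ± 26.6 CPM. For *Ccn2* the log2 fold change was 1.61 (SE 0.27, BH-adjusted p = 0.0556 in edgeR), which narrowly missed the criterion, and the 95% interval of the fold was 1.97 to 4.72. With the block *Ccn2* rose by 1.66 on the log2 scale (adjusted p = 0.00671, edgeR), and DESeq2 gave an adjusted p of 1.28e-06. In the unpaired edgeR fit it passed without the filter on low counts (adjusted p = 0.0459) and without cKO replicate 3 (0.0491). It kept this call in the blocked fit without any 1 pair (adjusted p = 0.000629 to 0.0431) and in DESeq2 without the first cKO library (log2 fold change 1.48, adjusted p = 0.000181).

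*Ccn1* had 27.1, 23.5 and 10.2 CPM in the control libraries and 109, 49.8 and 28.2 CPM in the cKO libraries. The groups did not overlap, but the lowest cKO library was only just above the highest control, and the means were 20.2 ± 8.90 and 62.3 ± 41.7 CPM. For *Ccn1* the log2 fold change was 1.62 (SE 0.55, BH-adjusted p = 0.138 in edgeR), with a 95% interval of the fold of 1.26 to 7.51. Within pairs of the same number, *Ccn1* was higher in the cKO library by 1.99, 1.07 and 1.43 on the log2 scale, a direction that the separate groups already fix. With the block *Ccn1* passed the criterion (log2 fold change 1.53, adjusted p = 0.0105). DESeq2 called it too (adjusted p = 0.0156). Without the first cKO library the DESeq2 log2 fold change was 0.95 with an adjusted p of 0.196. Without pair 3 the blocked adjusted p was 0.0948. The share of *Ccn1* in the TPM of *Ccn1* and *Ccn2* together was 31.0 ± 6.24% and 29.8 ± 11.6%, and the groups overlapped (exact permutation p = 0.9).

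*Amotl2*, an angiomotin that binds YAP at cell junctions, did not share this pattern. It had 116, 88.9 and 93.3 CPM in the control libraries and 115, 110.3 and 71.2 CPM in the cKO libraries. The groups overlapped, with means of 99.3 ± 14.4 and 98.7 ± 24.0 CPM. The log2 fold change was −0.01 (SE 0.20, BH-adjusted p = 0.987 in edgeR), its sign turned under other scalings, and the 95% interval of the fold was 0.713 to 1.39. Among the measured target genes on the list, *Ccn1*, *Ccn2* and *Lats2* thus differed by more than 2-fold in their means, and *Amotl2* did not.

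**Figure D3:**
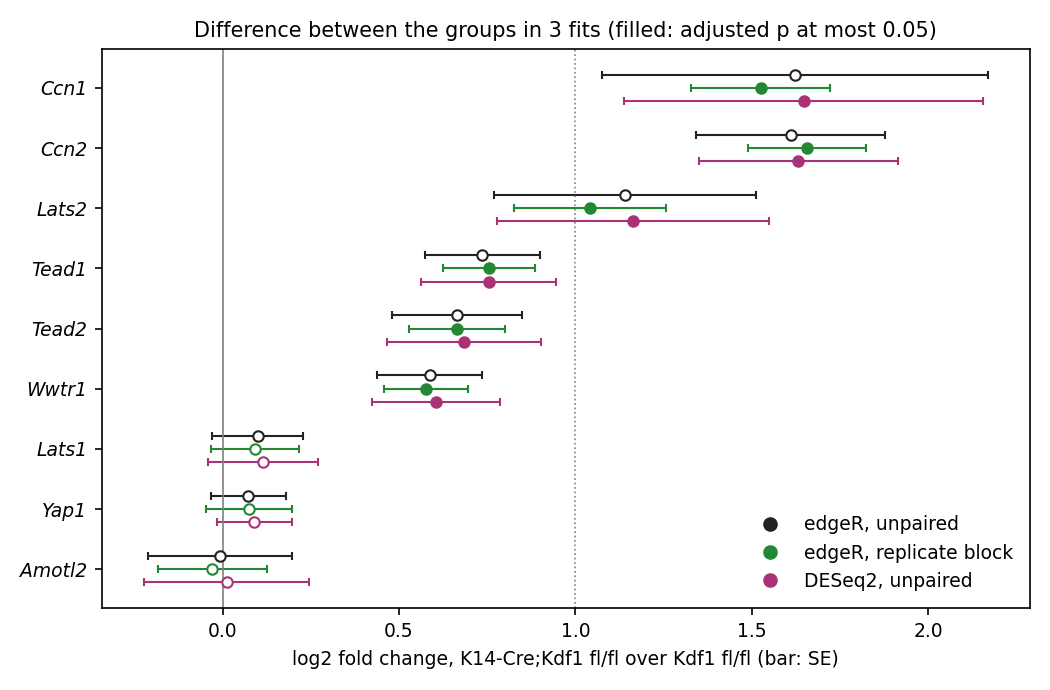
Log2 fold change of each member (horizontal axis, cKO over control, bars for the SE) in edgeR without pairing, edgeR with the replicate block and DESeq2, with filled points where the BH-adjusted p is at most 0.05 and a dotted line at the fold threshold. The estimates of the 3 fits lie close together, and the 6 upper genes are filled in the blocked fit and in DESeq2, whereas no gene is filled in the unpaired edgeR fit.

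Levels of different genes were compared in TPM. In the control IEE, *Yap1* was the highest of the members at 119 ± 12.3 TPM, above *Tead2* at 75.0 ± 16.9 TPM, and these groups of libraries did not overlap. *Tead2* in turn did not overlap with *Amotl2* at 43.3 ± 6.64 TPM. *Amotl2*, *Ccn2* (42.8 ± 16.4 TPM) and *Wwtr1* (36.3 ± 5.23 TPM) overlapped as neighbours in the order. *Wwtr1* was above *Tead1* (24.7 ± 6.24 TPM) without overlap. *Tead1*, *Lats1* (22.1 ± 0.452 TPM), *Ccn1* (20.0 ± 9.39 TPM) and *Lats2* (7.74 ± 2.22 TPM) again overlapped as neighbours. In the cKO IEE, *Ccn2* headed the order at 136 ± 30.5 TPM, but it overlapped with *Yap1* (130.0 ± 6.56 TPM), which overlapped with *Tead2* (124 ± 31.8 TPM). *Ccn1* (65.1 ± 47.6 TPM), *Wwtr1* (57.0 ± 13.0 TPM), *Amotl2* (45.3 ± 13.2 TPM) and *Tead1* (42.6 ± 4.46 TPM) followed, each overlapping with the next. The only neighbours without overlap were *Tead1* and *Lats1* (24.6 ± 2.08 TPM), and *Lats2* remained the lowest at 17.9 ± 10.4 TPM.

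The order of the libraries within a genotype was alike for many of the members. Within the cKO group, replicate 1 was the highest library for 6 of the 9 members and replicate 3 the lowest for 6. Within the control group, replicate 3 was the lowest for 7. Marker lists of other cell types were highest in some of the same libraries. The summed TPM of 9 endothelial markers was 173 to 246 in the control group and 710, 385 and 210 in cKO replicates 1, 2 and 3, and all 9 had a higher mean in the cKO group. Summed TPM of 7 pericyte and smooth muscle markers was 188 to 281 in the control group and 239 to 965 in the cKO group (7 of 7 higher), and of 9 immune markers 49.0 to 100.3 and 71.0 to 277 (8 of 9 higher). For each of these 3 lists, and for the skeletal muscle and erythroid lists, the highest library was cKO replicate 1, the library with the highest *Lats2*, *Ccn1* and *Ccn2*. Among the controls, replicate 3 was the lowest for the endothelial and skeletal muscle lists, replicate 2 for the pericyte and smooth muscle list, and replicate 1 for the immune list. *Pecam1*, a defining endothelial marker, had 62.8 ± 7.34 and 136 ± 65.6 CPM (log2 fold change 1.11, BH-adjusted p = 0.114 in edgeR).

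Markers of the dental epithelium and papilla also differed between the genotypes. The 10 epithelial markers summed to 13328 to 44593 TPM in the control group and 4856 to 8534 TPM in the cKO group, with 2 of 10 higher by mean TPM (1 of 10 by the edgeR estimate, *Epcam* being level in TPM). Much of the control sum was *Amelx*, which encodes the enamel protein amelogenin and had 4017 to 32209 TPM in the controls and 9.45 to 699 TPM in the cKO libraries. Without *Amelx* the sums were 8523 to 12384 TPM and 4683 to 7835 TPM. With the block 4 of the 10 were past the criterion downwards (*Krt14*, *Cdh1*, *Ambn* and *Amelx*), where 1.92% of all genes were. *Krt14* had 1567 ± 652 and 555 ± 223 CPM, with a blocked log2 fold change of −1.49 (adjusted p = 0.00685 in edgeR, 0.0842 unpaired). *Cdh1* fell from 843 ± 189 to 299 ± 45.0 CPM (unpaired log2 fold change −1.50, adjusted p = 0.0498 in edgeR), whereas *Epcam* had 321 ± 87.7 and 309 ± 41.7 CPM. The 12 papilla markers summed to 2039 to 9697 TPM and 5144 to 6770 TPM, with 8 of 12 higher by mean TPM, and *Col1a1* and *Col1a2*, whose groups overlapped, made up much of these sums. With the block 6 of the 12 passed the criterion upwards, against the 4.16% of all genes, and 1 passed it downwards. Of these, *Twist1* rose from 11.6 ± 4.28 to 54.5 ± 18.6 CPM (log2 fold change 2.23, BH-adjusted p = 0.0498 in edgeR). The blocked log2 fold change was 2.73 for *Postn*, 2.53 for *Prrx1*, 2.28 for *Col3a1*, 1.63 for *Msx1* and 1.02 for *Lum* (adjusted p = 0.0217 to 0.0387 in edgeR). *Dspp*, which encodes a dentin protein, fell by 4.18 on this scale (adjusted p = 0.00957). The genes listed beyond *Twist1* were named after their values were seen. The papilla marker *Col1a1* had 7797 ± 5470 and 5655 ± 1336 CPM. Sums for skeletal muscle (9.11 to 12.8 and 10.5 to 17.5 TPM, 5 of 8 higher), erythroid cells (3320 to 5038 and 3329 to 5582 TPM, 3 of 5 higher) and bone and cartilage (282 to 950 and 355 to 694 TPM, 4 of 8 higher) overlapped between the groups. No marker on these lists was at or under 3 reads over all libraries. The part of these markers' cells in the differences of *Ccn1*, *Ccn2*, *Lats2*, *Tead1*, *Tead2* and *Wwtr1* was not tested. In RNA from whole captured areas, more cells of a type cannot be told apart from more RNA per cell.

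**Figure D4:**
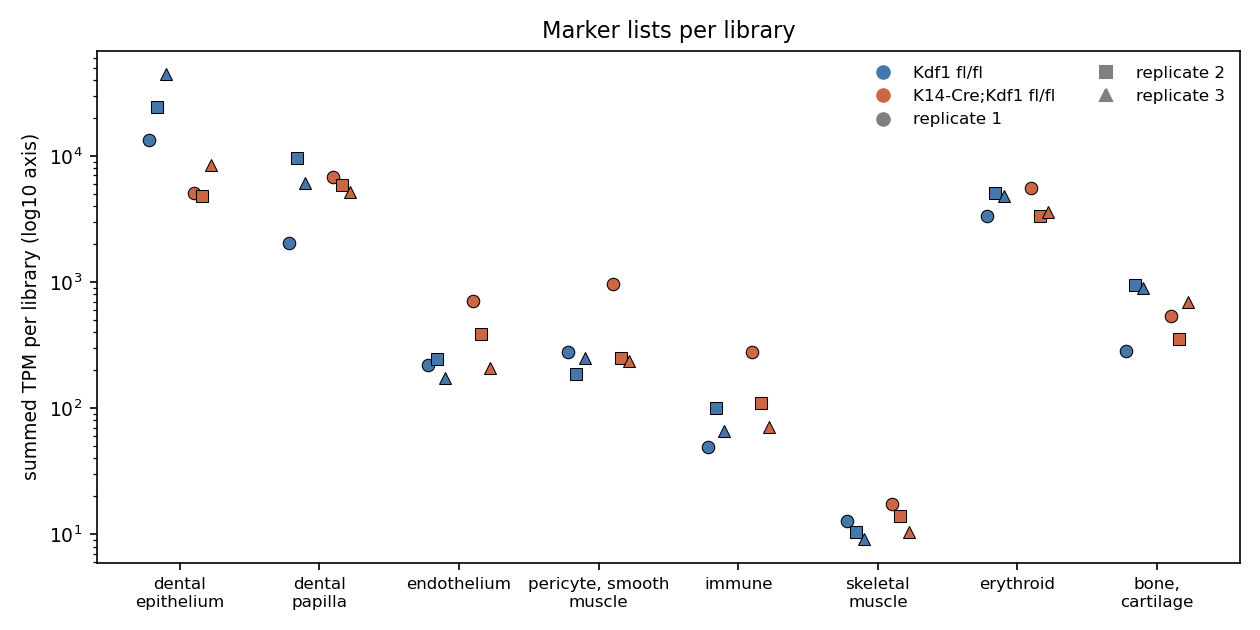
Summed TPM of 8 marker lists (vertical log10 axis) in each library, with colours for the genotype and symbols for the replicate number. cKO replicate 1 is the highest library for the endothelial, pericyte and smooth muscle, immune, skeletal muscle and erythroid lists, and the dental epithelial sums of the genotypes do not overlap.

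Of 57 other genes of the pathway, 39 of them upstream components and 18 TEAD relatives or partners of YAP, 56 passed the filter on low counts. In edgeR without pairing 0 passed the criterion, and at an unadjusted p of 0.05 it had 7 higher and 8 lower, where 13.0% of all genes were higher and 11.6% lower, so that these counts were near the background. With the block 2 passed it, both upwards, against 4.16% of all genes. DESeq2 called 3 higher and 1 lower, where 5.05% of all genes were called higher and 1.88% lower. The blocked and DESeq2 counts were thus also near the background and are not read as a result about the pathway. Without pair 3, 0 passed the criterion with the block, and without pair 2 there were 2 higher and 2 lower. By direction alone, 19 of the 56 were higher and 37 lower, and their median log2 fold change was −0.10 beside 0.00 over all genes. In 5 genes every cKO library was above every control, where 14.5% of all genes were above. In 12 every one was below, where 16.2% of all genes were below.

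Among the upstream components, *Dchs1*, a giant protocadherin and ligand of FAT4, had 109 ± 41.7 and 227 ± 101 CPM. Its blocked log2 fold change was 1.02 (adjusted p = 0.0167 in edgeR, 0.179 unpaired). Its groups overlapped, the blocked log2 fold change was 0.81 without pair 1, and the blocked adjusted p was 0.0942 without pair 3. *Runx2*, an osteogenic factor that binds YAP, had 51.8 ± 11.8 and 160 ± 75.4 CPM. The blocked log2 fold change of *Runx2* was 1.56 (adjusted p = 0.0241 in edgeR, 0.0674 unpaired), with a blocked adjusted p of 0.164 without pair 3. The blocked calls by adjusted p alone were 4 higher and 3 lower, where 5.43% of all genes were called higher and 4.44% lower. These counts were near the background too, so the genes named here describe single genes and not the pathway. The genes beyond *Dchs1* and *Runx2* are named after their values were seen. *Sav1*, the scaffold of the MST kinases, was higher (60.6 ± 5.47 and 97.6 ± 5.91 CPM, blocked adjusted p = 0.0246), as was the angiomotin *Amot* (31.7 ± 6.53 and 57.5 ± 21.3 CPM, 0.0241). *Wwc1*, which encodes the upstream scaffold KIBRA, was lower in every cKO library, at 43.4, 56.0 and 52.8 CPM beside 103, 87.8 and 112 CPM. It was the only 1 of the 56 with an unpaired edgeR adjusted p under the threshold (0.0498), and its log2 fold change of −0.99 fell short of the criterion. The polarity scaffold gene *Patj* (86.9 ± 10.6 and 50.3 ± 7.23 CPM, blocked adjusted p = 0.0134) and the 14-3-3 gene *Ywhah* (478 ± 92.4 and 279 ± 52.9 CPM, 0.0298) were the other two that were lower. DESeq2 called *Runx2* and, beyond the blocked calls, *Fat4*, a protocadherin (log2 fold change 1.60, adjusted p = 0.00132), *Vgll2*, a TEAD partner (1.57, 0.0126), and *Dchs2*, a relative of *Dchs1* (−1.26, 0.0265).

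A further 30 genes known as YAP or TAZ targets were listed, and 29 of them passed the filter. This list, too, was chosen with earlier results of these data known, so the shares of all genes beside its counts are a description. In edgeR without pairing 0 passed the criterion, with 6 higher and 3 lower at an unadjusted p of 0.05, against 13.0% and 11.6% of all genes. With the block 6 passed it, all upwards, against 4.16% of all genes, as did 6 in DESeq2, against 5.05%. The unpaired adjusted p of the 6 blocked calls lay between 0.0582 and 0.0862. By direction, 19 were higher and 10 lower, with a median log2 fold change of 0.13, and the 6 genes with separated higher groups stood beside 3 with separated lower groups, against 14.5% and 16.2% of all genes. The counts of lower genes were near or under these shares and are not read as a result about the list. *Thbs1*, the matricellular protein thrombospondin, had 23.6, 19.0 and 11.4 CPM in the control libraries and 257, 109 and 59.0 CPM in the cKO libraries. It rose with the block by 2.79 on the log2 scale (adjusted p = 0.00504 in edgeR), and the groups were far apart. The forkhead factor *Foxf2* rose from 18.6 ± 7.64 to 123 ± 70.0 CPM (blocked log2 fold change 2.66, adjusted p = 0.0124). *Igfbp3*, which binds insulin-like growth factors, rose from 189 ± 45.3 to 813 ± 572 CPM (1.92, 0.0233). *Rbms3*, an RNA-binding protein, rose from 8.77 ± 2.66 to 26.5 ± 10.6 CPM (1.56, 0.0161). *Tgm2*, a transglutaminase, rose from 2.72 to 6.15 CPM in the control libraries to 15.3 to 155 CPM in the cKO libraries (3.15, 0.0410), and *Ccdc80*, a matrix protein, from 3.81 ± 1.21 to 34.5 ± 36.5 CPM (2.65, 0.0486). In all 6 genes the highest library was cKO replicate 1, which also had the highest endothelial, pericyte and immune marker sums. Of the 12 papilla markers, 8 were higher by mean TPM in the cKO group. The others, *Col1a1* and *Dspp* among them, were lower. The papilla sums, of which *Col1a1* and *Col1a2* made up much, overlapped between the groups. In CPM, 6 of the 12 were above the controls in every cKO library and 1 (*Dspp*) was below, against 14.5% and 16.2% of all genes. Of these 6, *Twist1*, *Msx1*, *Col3a1*, *Prrx1* and *Postn* were also highest in cKO replicate 1, and *Pdgfra* was highest in cKO replicate 2. The part of these markers' cells in the values of the 6 genes was not tested. Without pair 3, 0 of the 29 passed the criterion with the block, the adjusted p of the 6 being 0.0565 to 0.231, and without pair 2 the adjusted p of *Ccdc80* was 0.173.

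**Figure D5:**
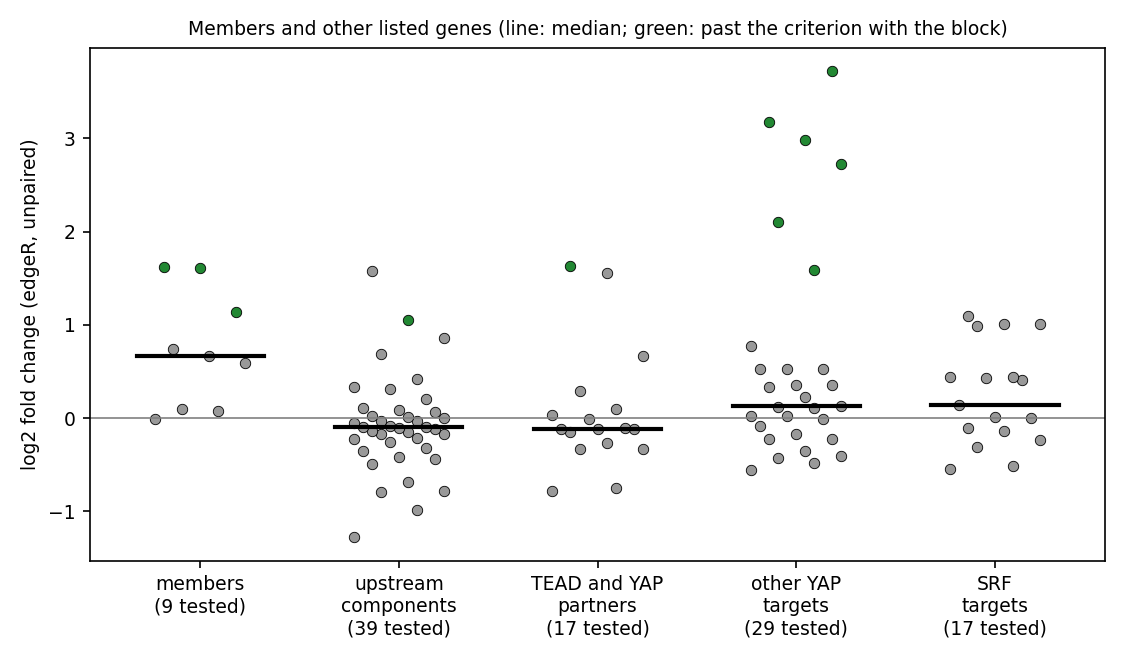
Unpaired edgeR log2 fold change of the 9 members and of 4 other lists (points, 1 per gene tested), with a line at the median of each list and green points where the gene passed the criterion with the replicate block. The line lies at 0.66 for the members, −0.10 for upstream components, −0.11 for TEAD and YAP partners, 0.13 for other YAP targets and 0.14 for SRF targets. The list labelled SRF targets also holds *Srf*, *Mrtfa* and *Mrtfb*.

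Relatives of the target genes and a second programme were compared in the same way. Of the other CCN family genes 4 were tested, *Ccn3* to *Ccn6*, and 0 passed the criterion in edgeR with or without the block or in DESeq2. At an unadjusted p of 0.05 (edgeR) 1 was higher and 0 lower, where 13.0% of all genes were higher. *Ccn4* had 110 ± 57.8 and 61.5 ± 12.5 CPM, and *Ccn5*, the relative with the largest positive estimate and named after its values were seen, had 0.924 ± 0.606 and 4.37 ± 4.23 CPM. *Ankrd23*, the only relative of *Ankrd1* that was tested, had 11.8 ± 1.08 and 13.9 ± 1.53 CPM (log2 fold change 0.24, BH-adjusted p = 0.444 in edgeR). Serum response factor (SRF) drives a programme of actin and immediate early genes that shares targets with YAP. Of 17 genes listed for it, which include *Srf* itself and its regulators *Mrtfa* and *Mrtfb*, 0 passed the criterion in either edgeR fit. At an unadjusted p of 0.05, 1 was higher and 2 lower, against 13.0% and 11.6% of all genes. DESeq2 called 1 higher (*Tpm2*, a tropomyosin, adjusted p = 0.0262), against 5.05%. By adjusted p alone the block called 0 higher and 1 lower (*Srf*, log2 fold change −0.57, adjusted p = 0.0353), against 5.43% and 4.44% of all genes. The median log2 fold change was 0.14.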

How the data were processed

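RNA from laser-captured IEE was sequenced in 3 control and 3 cKO libraries at E18.5. The submitters' processing notes name BWA 0.7.12, Picard 2.6.0 and StringTie, and the genome build was not given in the sources used here. The authors deposited estimated counts per gene, which are not normalised, with 10.9% to 11.5% of values per library not whole. The deposited TPM values were scaled by the authors for transcript length and library total. The deposited FPKM values were not used.

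Estimated counts were rounded and fitted in edgeR 4.0.16 (R 4.3.3) with filterByExpr, TMM factors of 0.950 to 1.03, a robust quasi-likelihood fit and two-sided F-tests with BH adjustment over 14131 genes. The biological coefficient of variation was 25.4%. Both groups are numbered 1 to 3, and deviations from the group mean of same-numbered libraries correlated across genes at 0.135, 0.324 and 0.499. The numbers were therefore treated as pairs on this check alone. Same-group libraries differed by 35.4 to 77.3 times the counting variance, so no library was duplicated. Alternatives were the replicate block, DESeq2 1.42.0, other scalings and filters, limma 3.58.1 on log2 TPM with a pseudocount of 1 or 0.1, and each library left out. Leaving out the first cKO library in DESeq2 and each pair in the blocked fit were added after the data were seen.

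The members and lists were chosen with earlier results of these data known. The genes named were all members, *Kdf1*, up to 6 genes per list with the largest fold change past the criterion in the blocked fit, and defining markers. Other genes were named as relatives of members or after their values were seen. *Pals1* was matched as *Mpp5*, and *Ptpn14*, *Ajuba* and *Amotl1* are on both the upstream and the target list. The log2 ratios within pairs used CPM with 0.5 added. Floors cover counting error only.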

Additional observations from a re-analysis of the deposited data

How the results depend on the processing

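Numbers past the criterion are given for members, other pathway genes, other YAP targets and all genes, which were 0, 0, 0 and 61 (20 higher, 41 lower) in edgeR without pairing. DESeq2 gave 3, 4, 6 and 980 (714 higher, 266 lower), and the replicate block 3, 2, 6 and 860 (588 higher, 272 lower). Without the filter on low counts they were 1, 1, 0 and 103 (36 higher, 67 lower), and by adjusted p alone 0, 1, 0 and 77. For all genes, DESeq2 size factors gave 7 (1 higher, 6 lower), library size alone 9 (2 higher, 7 lower), at least 10 counts in every library 6 (1 higher, 5 lower) and limma on log2(TPM + 1) 16 (4 higher, 12 lower), with 0 members in each. With each library left out in turn, the ranges were 0 to 1, 0 to 4, 0 to 4 and 1 to 465. The upper end of each came without cKO replicate 3, and without control replicate 2 the number for all genes was 16. Of the alternatives added later, DESeq2 without cKO replicate 1 gave 1, 4, 6 and 573, and the blocked fit without pair 1, 2 or 3 gave 2, 3 and 1 members, 2, 4 and 0 pathway genes, 6, 5 and 0 targets, and 885, 849 and 56 of all genes. The cause of these changes was not tested.

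The sign turned for *Amotl2*, from −0.01 to 0.0117 in DESeq2 and with DESeq2 size factors, 0.0471 by library size, 0.00829 with at least 10 counts, 0.0292 and 0.0289 in the limma fits on log2 TPM, −0.11 to 0.20 with 1 library left out and 0.14 in the blocked fit without pair 3, and for *Lats1* to −0.0052 in the blocked fit without pair 2. The other 7 members kept their sign in every alternative. Other scalings moved the median of all genes by 0.0170 and 0.0569, and 3 libraries per group limit the precision of single genes.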
